A study of Homo sapiens with 6 samples.

Results

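The microRNAs described here are both arms of a cluster of 2 hairpins, hsa-miR-143-3p, hsa-miR-143-5p, hsa-miR-145-5p and hsa-miR-145-3p, and the striated muscle microRNA hsa-miR-1. The prefix hsa, for human, is left out from here on. They are 5 of the 2596 microRNA entries among the 28846 small RNAs counted. Small RNA was sequenced from K562 cells, an established human erythroleukemia line with erythroid and megakaryocytic potential, grown in RPMI with FCS. Control cells carried the empty lentiviral vector SIEW, which expresses GFP, and RUNX1 cells carried the same vector with human RUNX1 and GFP, so that both conditions were transduced and GFP-expressing. Each condition had 3 samples from independent transductions of this 1 cell line, harvested after 10 days in culture. The comparison asks which microRNAs are sensitive to RUNX1, a transcription factor needed for megakaryocytic differentiation. RUNX1 mRNA was not analysed here, so these counts carry no check of the over-expression itself.

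A microRNA gene is transcribed as a long primary RNA, from which a hairpin is cut out and then trimmed to a duplex of 2 arms, named 5p and 3p. One arm is usually loaded into Argonaute and finds its target mRNAs through the seed, bases 2 to 8, while the other arm is mostly degraded. MiR-143 and miR-145 are known as a cluster with a shared primary transcript, abundant in smooth muscle and in fibroblasts, where they act on the contractile phenotype. MiR-1 is a microRNA of heart and skeletal muscle and is made from 2 gene copies, each beside a copy of miR-133a. None of them is a classical erythroid microRNA.

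The mature sequences are shown because the arms of one hairpin behaved differently, and capitals mark the seed. They are from RefSeq on GRCh38.p14, and all 5 names found a match, with the entry named miR-1 matched to miR-1-3p, its current name.
miR-143-3p: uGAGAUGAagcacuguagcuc
miR-143-5p: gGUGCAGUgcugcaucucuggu
miR-145-5p: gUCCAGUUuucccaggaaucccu
miR-145-3p: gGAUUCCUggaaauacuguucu
miR-1: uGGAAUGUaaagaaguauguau

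The 5 sequences are 21 to 23 nt long and have 5 different seeds, so the cluster does not form a seed family. The seed of miR-143-3p is shared with miR-4770 and miR-6088, and that of miR-1 with miR-206, a skeletal muscle microRNA, and miR-613. All 4 seed-sharing microRNAs had 0 counts in all 6 samples. Among 2370 mature sequences, the one nearest to miR-143-3p was miR-4770, 3 edits away, and the one nearest to miR-1 was miR-206, 4 edits away. The other members had no mature sequence within 5 edits, since miR-145-5p and miR-145-3p were 6 edits and miR-143-5p was 7 edits from their nearest neighbours.

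In the hairpins of the cluster, capitals mark the 2 arms, the 5p arm first, and the sequences are printed to show where each counted arm lies.
MIR143: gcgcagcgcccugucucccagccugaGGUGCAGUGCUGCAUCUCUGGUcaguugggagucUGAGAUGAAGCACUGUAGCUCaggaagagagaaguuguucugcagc
MIR145: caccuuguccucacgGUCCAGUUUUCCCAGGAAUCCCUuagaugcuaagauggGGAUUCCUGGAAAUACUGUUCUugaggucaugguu

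In GENCODE release 29 on GRCh38, MIR143 lies on chromosome 5 from 149428918 to 149429023 and MIR145 from 149430646 to 149430733, both on the plus strand, with 1622 bases between them. Both lie inside the lincRNA CARMN, the cluster's host gene, from 149406689 to 149432835 on the same strand. MIR143 overlaps an exon in 1 of the 12 annotated CARMN transcripts, and MIR145 lies in an intron of 1. The copies of miR-1 are MIR1-1, on chromosome 20 from 62554306 to 62554376 in an intron of MIR1-1HG, and MIR1-2, on chromosome 18 from 21829004 to 21829088 in an exon of 2 of the 3 transcripts of MIR133A1HG. Their mature sequence is the same, so counts of miR-1 do not tell the copies apart. The RUNX core motif TGTGGT, searched on both strands, was in 13.1% of 35116 RefSeq promoters of 300 bases (250 before the start and 50 after it). It was not in those of CARMN, MIR1-1HG and MIR133A1HG, which says only that these letters are not in these windows. The variant TGCGGT was in 7.29% of promoters and, of the 3 host genes, in that of MIR133A1HG.

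Total counts ranged from 1618248 in control replicate 1 to 15245007 in RUNX1 replicate 1, and 3 counts, taken as the smallest amount that can be shown, were 0.000185% of the counts in the former and 1.97e-05% in the latter. MicroRNAs took from 81.4% to 82.1% of the counts in control and from 89.5% to 91.9% with RUNX1. RUNX1 replicate 3 stood apart from the other RUNX1 samples, at a chi-square of 451 and 314 for each degree of freedom against replicates 1 and 2, which differed from each other by 56.3. Levels are given below as CPM, the usual depth-scaled count, with the library size scaled by TMM, a method that takes most small RNAs as unchanged. They were not divided by length. Replicates are listed from 1 to 3. Of the 5 members, 4 passed the filter on low counts, and miR-143-5p did not.

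These microRNAs were chosen by their fold changes between the same samples, among them the largest increase of all 947 tested small RNAs, that of miR-143-3p, and the third largest, that of miR-1. Their differences between control and RUNX1 samples are therefore given as a description, without a test. The log2 fold changes (log2FC) and their standard errors (SE) are from edgeR's quasi-likelihood fit across all tested small RNAs. With TMM, in 3 of the 4 tested members, miR-143-3p, miR-145-5p and miR-1, all RUNX1 samples lay above all control samples, which held for 31.4% of the tested small RNAs. MiR-1 passed the filter only through its RUNX1 counts, so for miR-1 this order followed from the filter. In miR-145-3p all lay below, which held for 33.5%. The study took small RNAs as altered when P was below 0.05 and log2FC was 0.5 or more in size. These thresholds were met by 57.6% of the tested small RNAs, of which 28% of all tested rose and 29.6% fell, and among microRNA entries alone 33.4% rose and 22.6% fell.

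**Figure D1:**
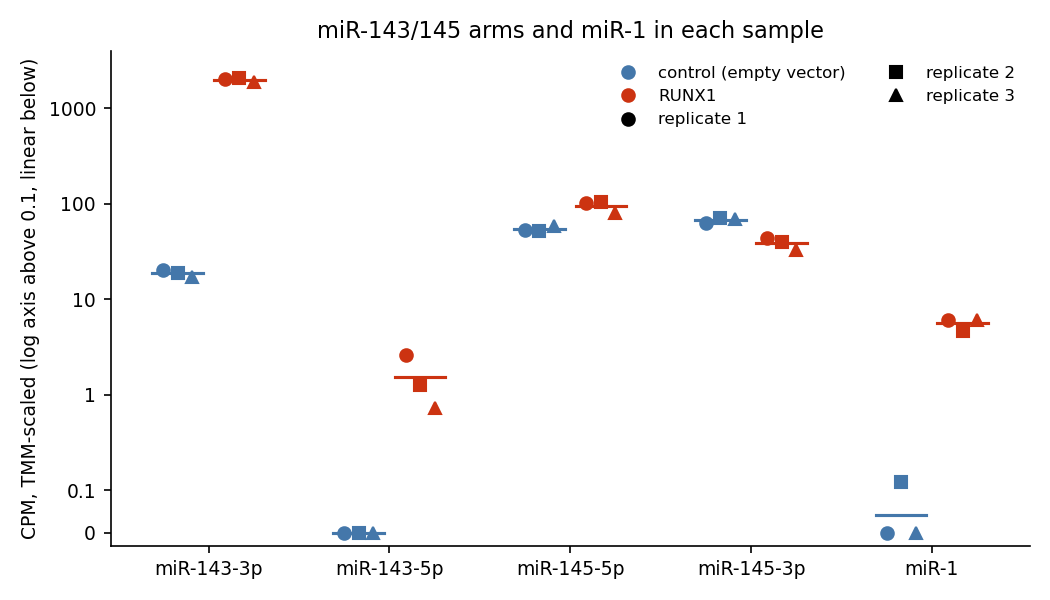
CPM (vertical axis, logarithmic above 0.1 and linear below) of the 5 members in each of the 3 control and 3 RUNX1 samples, with bars at the group means. MiR-143-3p went from below 21 to at least 1865 CPM, miR-143-5p was at 0 in all control samples, and the arms of miR-145 moved apart.

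MiR-143-3p, the arm usually taken as the functional one, had 42, 152 and 131 counts in the control replicates and 23516, 12816 and 12786 in the RUNX1 replicates. These were 20.1, 18.9 and 17.2 CPM in control and 2039, 2049.5 and 1865 CPM with RUNX1. The samples of a condition lay close together, with a coefficient of variation of 7.59% in control and 5.21% with RUNX1, and the conditions were far apart. The mean was 18.7 ± 1.42 CPM in control and 1985 ± 103 CPM with RUNX1 (mean ± SD, n = 3), a log2FC of 6.74 (SE 0.156). Among microRNA entries its rank by CPM was 252, 253 and 262 in control and 43, 44 and 42 with RUNX1. It took from 0.00212% to 0.00260% of all counts in control and from 0.151% to 0.161% with RUNX1. Relative to its share, the widest exact 95% binomial interval was 0.00187% to 0.00351%, in control replicate 1. Such an interval covers counting error only. In bulk RNA, a higher level in all cells and a high level in a part of them cannot be told apart.

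MiR-143-5p, the other arm of the same hairpin, had 0 counts in all 3 control samples and 30, 8 and 5 counts in the RUNX1 replicates. The RUNX1 samples stood at 2.60, 1.28 and 0.729 CPM, and replicate 3 was the lowest. Pooled over the samples of a condition, with 3 counts over the control group as the floor, it was at least 10.3-fold higher with RUNX1. RUNX1 replicate 1 gave 30 of the 43 counts, and without it the bound was 5.87-fold. Without control replicate 2 or 3, which leaves fewer counts behind the floor, it was 5.64-fold or 5.91-fold. With the microRNA total as the library size, a choice made after the data were seen like the samples left out here, this bound was 5.67-fold. In RUNX1 samples the 5p arm was 0.0875% of the counts of both arms, 43 against 49118. At that ratio the 325 counts of miR-143-3p in control would go with 0.285 counts of miR-143-5p, so its 0 there lies below what this depth can show. Whether the ratio of these arms differed between the conditions was therefore not detectable.

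The second hairpin of the cluster had both arms well above the floor in control cells. MiR-145-5p, known to repress pluripotency factors, had 53.5, 51.9 and 58.0 CPM in the control replicates and 101, 106 and 81.0 CPM in the RUNX1 replicates. With TMM all RUNX1 samples lay above the control samples, with replicate 3 nearest to them, and without its scaling factors they overlapped. The means were 54.5 ± 3.20 and 95.9 ± 13.1 CPM (mean ± SD, n = 3), a log2FC of 0.81 (SE 0.147).

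The 3p arm went the other way. MiR-145-3p had 63.6, 71.5 and 68.7 CPM in control and 44.3, 39.5 and 32.8 CPM with RUNX1, and the conditions did not overlap. The means were 67.9 ± 4.0 and 38.9 ± 5.77 CPM (mean ± SD, n = 3), a log2FC of -0.81 (SE 0.151). Without RUNX1 replicate 3, the log2 fold changes were 1.01 for miR-145-5p and -0.61 for miR-145-3p.

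**Figure D2:**
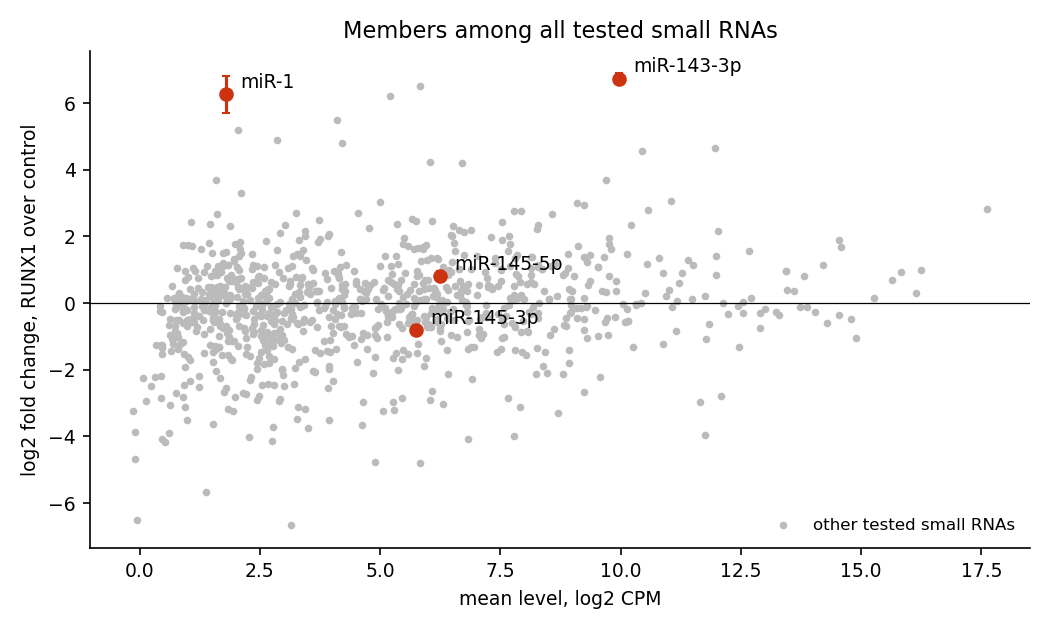
Log2 fold change of RUNX1 over control (vertical axis) against mean log2 CPM (horizontal axis) for the 947 tested small RNAs, with the 4 tested members in red and bars for their SEs. MiR-143-3p had the highest value, 6.74, at a high mean level, miR-1 had 6.26 near the lower end of the levels, and the arms of miR-145 stood at 0.81 and -0.81 within the bulk of the points.

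Ratios of counts within a sample need no scaling between libraries. For each count of miR-145-3p there were 0.842, 0.726 and 0.845 counts of miR-145-5p in the control replicates and 2.28, 2.68 and 2.47 in the RUNX1 replicates. The 3p arm thus had more counts in every control sample and the 5p arm in every RUNX1 sample. On the log2 scale the ratio was -0.32 ± 0.125 in control and 1.30 ± 0.116 with RUNX1 (mean ± SD, n = 3), a difference of 1.62 (SE 0.0985). Among the 144 microRNAs with both arms tested, 15 had arms whose log2 fold changes differed by at least as much, miR-145 included, and the median difference was 0.60 in size. The arms had log2 fold changes of opposite sign in 44 of the 144.

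The hairpins of the cluster also differed from each other. For each count of miR-145-5p there were 0.375, 0.364 and 0.297 counts of miR-143-3p in the control replicates and 20.2, 19.4 and 23.0 in the RUNX1 replicates. Relative to miR-145-3p, the counts of miR-143-3p were 0.316, 0.264 and 0.251 in control and 46.0, 51.9 and 56.8 with RUNX1. The log2 ratio of miR-143-3p to miR-145-5p was -1.54 ± 0.185 in control and 4.38 ± 0.130 with RUNX1 (mean ± SD, n = 3), a difference of 5.91 (SE 0.130). MiR-143-3p made up from 12.0% to 14.6% of the counts of the 5 members in control and from 93.0% to 93.9% with RUNX1. These ratios rest on the fold changes by which the microRNAs were chosen and are a description.

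**Figure D3:**
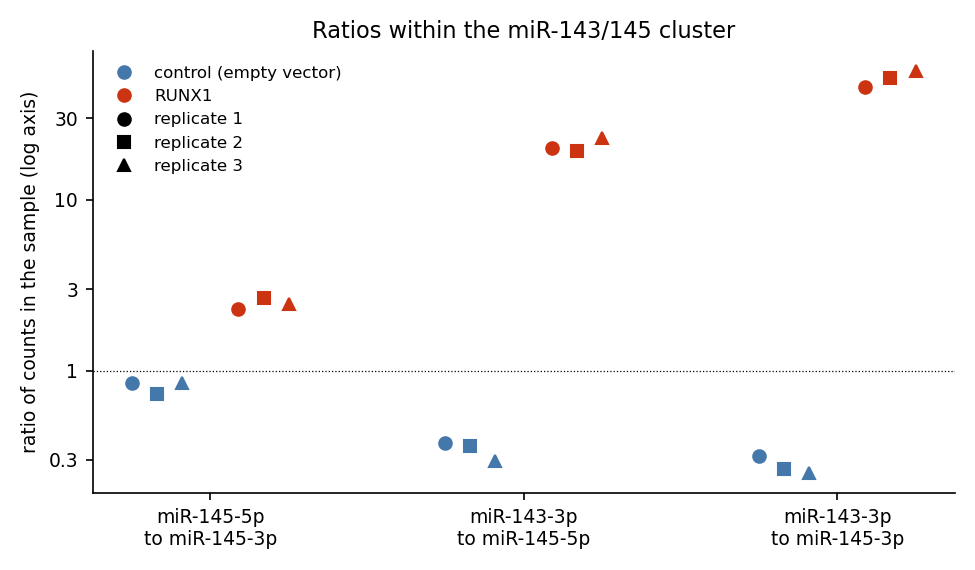
Ratio of counts within each sample (vertical axis, logarithmic) for miR-145-5p to miR-145-3p, miR-143-3p to miR-145-5p and miR-143-3p to miR-145-3p, with a dotted line at 1. All control samples lie below 1 and all RUNX1 samples above it for each ratio.

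The small differences of miR-145 depended on the scaling. TMM takes most small RNAs as unchanged, while with it 57.6% of those tested were called altered, so this assumption is in doubt. MiR-10a-5p, encoded in a homeobox gene cluster, took from 5.81% to 7.02% of the counts in control and from 24.5% to 29.3% with RUNX1. With TMM and miR-10a-5p left out, the log2 fold changes of miR-145-5p and miR-145-3p were 0.81 and -0.81. Library size alone was not fitted without miR-10a-5p, so its part in the dependence on the scaling was not tested. The median log2 fold change of all tested small RNAs was -0.06 with TMM, -0.26 when the scaling rested on microRNAs and -0.76 with library size alone. MiR-145-5p had 0.81, 0.62 and 0.11 under these scalings, and miR-145-3p -0.81, -1.0 and -1.52. As a share of the microRNA counts, miR-145-5p had 84.9 ± 1.70 CPM of that total in control and 82.2 ± 3.50 with RUNX1 (mean ± SD, n = 3), so that its direction turned. The samples were not separated there or with library size alone, where RUNX1 replicate 3 had 70.1 CPM and control replicate 3 had 71.2 CPM. Relative to the median small RNA, the TMM values were 0.88 for miR-145-5p and -0.74 for miR-145-3p. This difference from the median is nearly the same under any scaling by construction, since a scaling shifts all small RNAs together, and it says nothing of stability. MiR-143-3p had 6.74, 6.54 and 6.03 under the fitted scalings, and as a share of the microRNA counts 29.3 ± 3.08 CPM in control and 1711 ± 81.7 CPM with RUNX1.

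**Figure D4:**
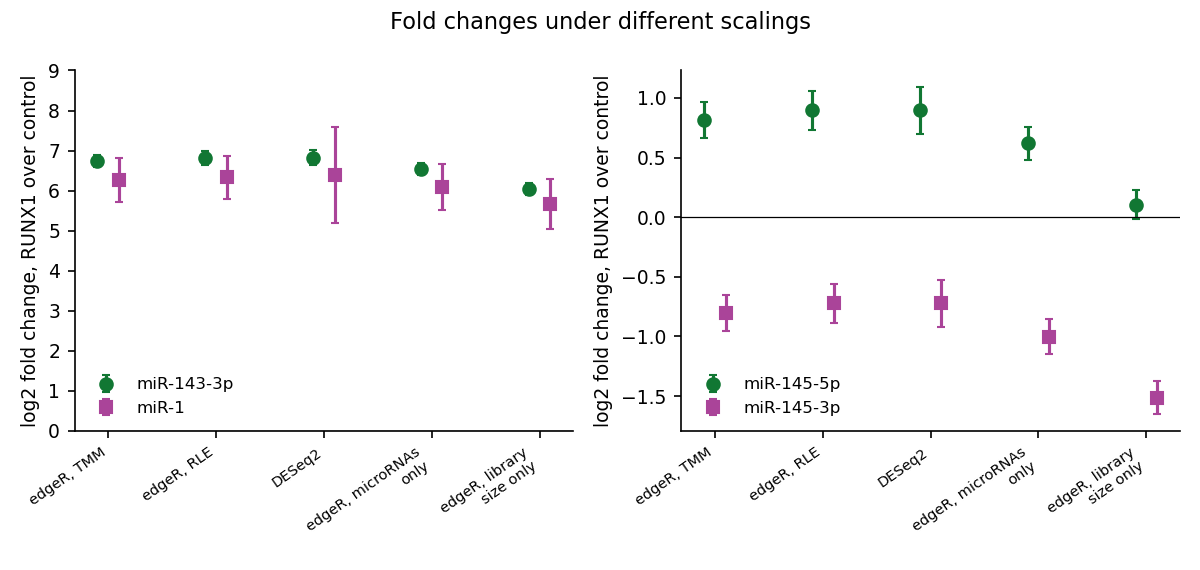
Log2 fold change of RUNX1 over control (vertical axes, with bars for the SE) under 5 scalings, for miR-143-3p and miR-1 on the left and the arms of miR-145 on the right. MiR-145-5p went from 0.81 with TMM to 0.11 with library size alone, while miR-143-3p went from 6.74 to 6.03.

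MiR-1 was near or below the floor in control cells, with 0, 1 and 0 counts in replicates 1, 2 and 3. RUNX1 replicates 1, 2 and 3 had 70, 29 and 42 counts, or 6.07, 4.64 and 6.13 CPM. All RUNX1 samples held miR-1, at 5.61 ± 0.844 CPM (SD, n = 3) and ranks of 358, 384 and 350 among microRNA entries, so it stayed a minor microRNA. The fitted log2 fold change was 6.26 (SE 0.550). Pooled over samples, the ratio was 102-fold, with an exact 95% counting interval from 17.9 to 4040.2, so the size of this difference is known only roughly. The log2 fold change was 8.28 without control replicate 2, which holds the only control count, and 5.63 without control replicate 3. The pooled ratio was 58.1-fold without control replicate 3, and without control replicate 2 miR-1 was at least 18.5-fold higher, with 3 counts over the control group as the floor.

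The microRNAs known to accompany miR-1 in striated muscle were looked at as a list. It has 10 entries in the files, of which 4 had 0 counts in all samples, miR-206 among them, and 1 passed the filter. MiR-133a-3p, whose genes lie 10535 bases from MIR1-1 and 3218 bases from MIR1-2, had 0 counts in control and 5, 0 and 1 in the RUNX1 replicates. MiR-133b, the partner of miR-206, had 0 counts in control and 5, 0 and 7 with RUNX1. In the heart-specific miR-208 family, the most counts in any sample were 3, of miR-208b-3p in RUNX1 replicate 1.

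The entry tested was miR-499a-5p, encoded in an intron of a myosin gene. It had 12, 34 and 24 counts in control and 97, 61 and 60 with RUNX1, or 4.37 ± 1.30 and 8.97 ± 0.698 CPM (mean ± SD, n = 3). It rose with a log2FC of 1.13 (SE 0.246, edgeR quasi-likelihood test, Benjamini-Hochberg adjusted p = 0.00344), and with library size alone it did not pass the thresholds, at 0.42. The summed level of the list was from 3.29 to 5.74 CPM in control and from 9.92 to 10.2 CPM with RUNX1.

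Since miR-143 and miR-145 are abundant in smooth muscle and fibroblasts, other microRNAs of these cells were set beside them. Of the 10 entries on this list, 2 had no counts and 3 were tested. Of these, 1 rose and 1 fell, while 28% of all tested small RNAs rose and 29.6% fell. The median log2 fold change of the 3 was 0.13, and that of all tested small RNAs was -0.06. MiR-199a-5p and miR-199b-3p were at 0 in all samples, miR-199a-3p had at most 2 counts and miR-125b-5p at most 1, while miR-199b-5p had 347 ± 27.3 CPM in control and 379 ± 88.6 CPM with RUNX1 (mean ± SD, n = 3). MiR-199a-3p and miR-199b-3p are known to have the same mature sequence, and how reads of such arms were assigned is not given in the sources used here. MiR-10b-5p, encoded in a homeobox gene cluster, had 357 ± 16.7 CPM in control and 1375 ± 404 CPM with RUNX1 and rose with a log2FC of 1.94 (SE 0.201, same edgeR test, adjusted p = 4.52e-05), and miR-100-5p fell with -1.94 (SE 0.341). MiR-199b-5p, at 0.13 (SE 0.183), did not pass, and with library size alone it fell, at -0.59. MiR-214-3p went from 0, 1 and 0 control counts to 21, 9 and 30 with RUNX1, and miR-214-5p from 0, 0 and 0 to 24, 10 and 11. Both arms failed the filter, and leaving out control replicate 1, 2 or 3, which changes what the filter keeps, brought them in, so that 3 entries met the thresholds upward. The arms of miR-214 came in only through their RUNX1 counts, so the filter fixed the direction of their calls. The summed level of the list was from 697 to 733 CPM in control and from 1499 to 2248 CPM with RUNX1. Most of this difference was that of miR-10b-5p, so the sum does not describe the list as a whole. The part of other cells in the change of the members was not tested.

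The label of the cells was checked with blood cell microRNAs. Beside the calls in these lists, 28% of all tested small RNAs rose and 29.6% fell. Among tested microRNA entries 33.4% rose and 22.6% fell. An erythroid list (miR-451a, miR-144, miR-486 and miR-4732) summed to between 4476 and 5106 CPM in control and between 2385 and 3784 CPM with RUNX1, where 1 of 5 tested entries rose and 3 fell. Without control replicate 1, control replicate 3 or RUNX1 replicate 2, 1 entry fell, and without RUNX1 replicate 2, 2 rose. In a haematopoietic list (miR-142, miR-223, miR-150 and miR-155), all 4 tested entries rose, led in level by miR-142-5p with 11709 ± 783 CPM in control and 37678 ± 6227 CPM with RUNX1 (mean ± SD, n = 3). With library size alone, 2 of the 4 passed, and miR-155-5p did not pass without control replicate 3, without RUNX1 replicate 1, with microRNA-based scaling or with DESeq2.

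An epithelial list of 7 entries had 4 tested, of which 3 met the thresholds upward with TMM and 1 with library size alone. MiR-205-5p, whose call followed from the filter as given below, was among the 3. It was also the entry called with library size alone. Under that scaling miR-141-3p, at 0.48, and miR-200c-3p, at 0.26, did not pass. With TMM 33.4% of all tested microRNA entries rose. In the epithelial list miR-205-5p went from 0, 9 and 8 control counts to 904, 362 and 514 with RUNX1, a log2FC of 6.20 (SE 0.328). It passed the filter only through its RUNX1 counts, so the direction of its call was fixed by the filter and it is described without a P-value. MiR-200b-3p did not pass, with -0.41 (SE 0.201), and it fell without RUNX1 replicate 2, at -0.53, and with library size alone, at -1.12. The summed level of this list was from 55.8 to 63.7 CPM in control and from 166 to 180.4 CPM with RUNX1, and its part in the differences of miR-143, miR-145 and miR-1 was not tested.

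**Figure D5:**
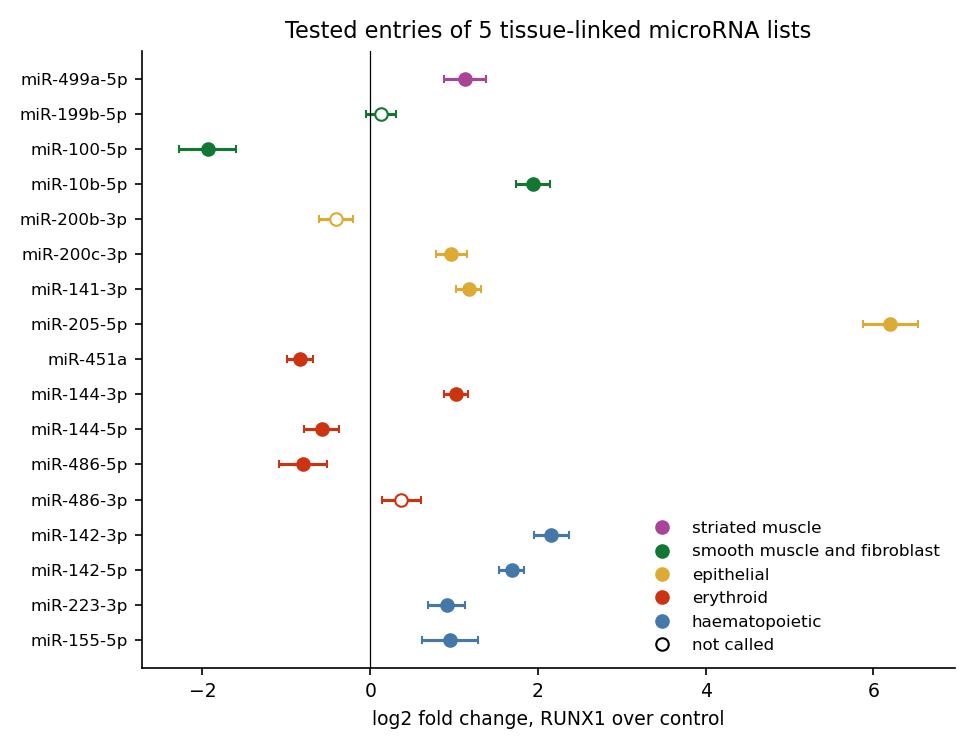
Log2 fold change of RUNX1 over control (horizontal axis, with bars for the SE) for the tested entries of the 5 lists, with open points for entries that did not pass the thresholds. MiR-205-5p stands at 6.20, miR-10b-5p at 1.94, miR-499a-5p at 1.13 and miR-100-5p at -1.94.

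The microRNAs with the pattern most like each member were found by the Euclidean distance between log2 CPM profiles over the 6 samples, each profile centred on its own mean. Nearest to miR-143-3p was miR-181a-3p, the passenger arm of a haematopoietic microRNA, at a distance of 0.527, followed by miR-363-3p at 1.66 and miR-1 at 1.66. With a prior count of 2, miR-205-5p took the place of miR-1. The level of miR-181a-3p was from 0.921 to 1.43 CPM in control and from 97.7 to 120.4 CPM with RUNX1. For miR-1 the nearest were miR-363-3p at 1.25, miR-187-3p at 1.28 and miR-181a-3p at 1.35. MiR-145-5p lay nearest to miR-330-5p at 0.151, miR-27a-3p at 0.153 and miR-374a-3p at 0.174. MiR-145-3p lay nearest to miR-330-3p at 0.201, miR-505-3p at 0.323 and miR-3918 at 0.331. The distance mostly follows the difference between the conditions, and the arms of miR-145 had differences of opposite sign, so that their different neighbours are no separate result.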

How the data were processed

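The authors made libraries with the TruSeq Small RNA kit from 1000 ng of total RNA, sequenced single reads on a HiSeq2000 and demultiplexed them with CASAVA 1.8.2. The deposited values are whole-number counts per annotated small RNA without normalization, made with the OASIS platform. The submitters' processing notes name hg19. The aligner and the treatment of multi-mapping reads, on which counts of near-identical small RNAs depend, are not given in the sources used here. Condition and replicate were read from the sample titles. The library names of control and RUNX1 samples carry different letters. Whether they stand for separate preparations is not stated, and such preparations and the conditions cannot be told apart. RUNX1 replicate 1 has the number 2 in its library name, and the title was followed.

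The 947 small RNAs that passed filterByExpr (minimum count 10, minimum total 15) were fitted after TMM scaling with edgeR 4.0.16 (glmQLFit, then glmQLFTest) in R 4.3.3, with condition as the only term and P-values adjusted by Benjamini-Hochberg over all 947. Standard errors were obtained as log2 fold change over the square root of F. As in the study, altered small RNAs were those with P below 0.05 and a log2 change of 0.5 or more in size. Within-sample log2 ratios had 0.5 added to each count. In data simulated for this comparison with 200 small RNAs changed by 1.5 on the log2 scale, 932 were tested. EdgeR recovered 99% of the changed ones and called 3.55% of the unchanged ones. The changed ones had at least 200 counts over all samples, and the same dispersion was used for all. The 99% therefore does not cover low counts such as those of miR-1, or smaller changes such as those of miR-145.

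Alternatives were RLE factors, library size alone, microRNA-based scaling, DESeq2 1.42.0, omission of the count filter, a floor of 10 counts per sample, adjusted in place of raw P-values, the replicate number as a block, miR-10a-5p left out, another pseudocount, and each sample left out. The members and lists were chosen with earlier results of these data known. The microRNAs named are the members, the entries of the lists, those sharing a seed with a member and the 3 nearest profiles of each tested member. No samples of a condition agreed within counting error (chi-square of at least 9.62 for each degree of freedom).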

Additional observations from a re-analysis of the deposited data

How the results depend on the processing

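Library size alone moved the log2 fold changes to 6.03 for miR-143-3p, 0.11 for miR-145-5p, -1.52 for miR-145-3p and 5.66 for miR-1, and gave 120 small RNAs that rose and 521 that fell, against 265 and 280. In the lists it left 0 striated muscle, 1 epithelial, 0 erythroid and 2 haematopoietic entries that rose, and 2 smooth muscle and fibroblast and 1 epithelial entries that fell. The epithelial entry that rose was miR-205-5p, which passed the filter only through its RUNX1 counts. Library size alone also turned miR-199b-5p to -0.59 and miR-486-3p to -0.31. Scaling on microRNAs gave 6.54 for miR-143-3p, 0.62 for miR-145-5p and -1.0 for miR-145-3p, turned miR-199b-5p to -0.065, and let 1 epithelial entry fall. The causes of these shifts were not tested. Without a count filter 3084 small RNAs were tested, of which 382 rose. In the lists 3 striated muscle, 3 smooth muscle and fibroblast and 5 epithelial entries then rose. The striated muscle entries added were miR-133a-3p and miR-133b, each with 0 counts in RUNX1 replicate 2. MiR-133a-3p and, in the epithelial list, miR-429 did not pass with adjusted P-values. With 1 count added in place of 0.5, the difference of the log2 ratio of miR-143-3p to miR-143-5p was 3.79 in place of 2.88, by the construction of a ratio to 0 counts. With a prior count of 2, 1 of the 3 nearest profiles of miR-1 was shared. At least 10 counts in every sample left no value for miR-1.

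With 1 sample left out, the log2 fold changes ranged from 6.69 to 6.88 for miR-143-3p, from 0.77 to 1.01 for miR-145-5p, from -0.89 to -0.61 for miR-145-3p and from 5.63 to 8.28 for miR-1. The difference of the log2 ratio of miR-143-3p to miR-143-5p ranged from 2.30 to 3.30. Entries that rose ranged from 1 to 3 in the smooth muscle and fibroblast list and from 1 to 2 in the erythroid list. The upper value of 3 includes both arms of miR-214, which passed the filter only through their RUNX1 counts. Entries that fell ranged from 0 to 1 in the epithelial and from 1 to 3 in the erythroid list.

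Between same-numbered samples, the deviations from the group means had correlations of -0.04, -0.10 and 0.01. Pairing by number was thus not visible, but so few values cannot exclude it, and the sample titles do not state it. With the replicate block 546 small RNAs were altered against 545, and the log2 fold changes were 6.73 for miR-143-3p, 0.80 for miR-145-5p, -0.82 for miR-145-3p and 6.21 for miR-1. MiR-155-5p, with 0.89, no longer passed under the block. Depth limits miR-143-5p and miR-1 most, since both were within 1 count of 0 in each control sample.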
